A study of Mus musculus with 28 samples.

Results

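The translation initiation factor genes described here are 51 mouse genes measured by RNA-seq in CD4+ T cells given IL-2 or IL-21. They were chosen by name: every symbol that begins with Eif and a digit from 1 to 6, except the eIF2 kinase genes (Eif2ak), with at least 1 RPKM in its highest library. RPKM scales the reads of a transcript to its length and to the library's total, so levels of different genes can be set side by side. Of the 23222 gene symbols in the deposited files, 54 matched the pattern and 51 reached that floor. The 3 others were Eif2c4, with at most 0.348 RPKM, and Eif2s3y and Eif4e1b, with at most 1 read in any library. The member nearest above the floor was Eif2c3, with 3.15 RPKM in its highest library. The pattern also takes in 3 Argonaute genes listed under their older symbols (Eif2c1, Eif2c2 and Eif2c3), which act in RNA silencing and are not initiation factors. It takes in 4 further genes with a related name (Eif1ad, Eif2a, Eif2d and Eif4a3) that lie outside the standard initiation pathway.

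The starting material was CD4+ T cells from spleens of wild-type C57BL/6 mice, and all cultures shared 3 days of activation with anti-CD3 (2 µg/ml) plus anti-CD28 (1 µg/ml) and a night of rest. Cultures then received IL-2 or IL-21 and were collected at 4 times (0.5, 2, 4 and 24 h), and the control received no cytokine. There was 1 library per condition, so 9 of the 28 samples of the series entered, and the chromatin samples were not analysed here. The labels attach no cytokine dose to the RNA-seq cultures, and they do not say that libraries came from separate mice or cultures. Every comparison with the control uses the same single control library, which has no counterpart at later times here, so time in culture and cytokine cannot be told apart in those comparisons.

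Library totals ran from 29.5 to 44.3 M reads, and the smallest count of a member in any library was 237 reads. Ratios between libraries carry exact conditional binomial 95% intervals, which cover counting error only and not the variation between cultures. The 6 T cell markers (Cd3d, Cd3e, Cd3g, Cd4, Cd5 and Cd28) were all present. Their summed level was 1392 RPKM in the control, 811 to 1382 RPKM over the IL-2 libraries and 1064 to 1351 RPKM over the IL-21 libraries. Cd4 itself had 207 RPKM in the control. The 2 CD8 T cell markers summed to 9.73 RPKM in the control, 6.27 to 10.9 RPKM with IL-2 and 7.80 to 11.3 RPKM with IL-21. The 7 macrophage markers summed to 9.93 RPKM in the control, 5.67 to 9.44 RPKM with IL-2 and 8.31 to 14.9 RPKM with IL-21. The 9 B cell markers summed to 60.7 RPKM in the control, 27.8 to 59.6 RPKM with IL-2 and 11.6 to 57.0 RPKM with IL-21, with none at 0. The 5 NK cell markers summed to 201 RPKM in the control, 119 to 191 RPKM with IL-2 and 211 to 541 RPKM with IL-21. Most of that sum was Gzma. Klrd1 had 8.10 RPKM in the control, 3.24 to 7.19 RPKM with IL-2 and 5.11 to 20.9 RPKM with IL-21, Eomes did not exceed 2.61 RPKM in any library, and Klrb1c and Ncr1 did not exceed 0.219 RPKM. These sums moved with cytokine and time, and their part in the results below was not tested.

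Initiation begins when eIF4F, made of the cap-binding protein eIF4E, the RNA helicase eIF4A and the scaffold eIF4G, gathers a messenger RNA by its cap. The small ribosomal subunit, carrying eIF1, eIF1A, eIF3, eIF5 and the initiator tRNA bound to eIF2, then scans for the start codon, and eIF5B joins the large subunit. Known controls are the phosphorylation of eIF2, which blocks its recycling by eIF2B, and the binding of eIF4E by repressor proteins that the mTOR kinase switches off in growing T cells. RNA levels of these genes report neither of these protein modifications.

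With IL-2 the median of the set stood above the control from 2 h on, by more than with IL-21 at each of those times. Eif1a had the largest difference from control of any member with IL-2 at 2 h. At 4 h the largest were those of Eif1a and the cap-binding gene Eif4e, each 1.44 log2 units. At 24 h they were those of Eif4e and Eif5a. With IL-21 the only member 2-fold or more from the control was Eif1a, at 2 h. Differences are on the log2(RPKM + 1) scale, which understates changes of low genes, and a gene was counted at 2-fold or more on that scale over the 11047 genes of the files that reach 1 RPKM. In bulk RNA, fewer cells of a type and less RNA per cell cannot be told apart. After 0.5 h of IL-2, 0 of the 51 members were 2-fold higher and 0 lower, while 0.407% of all genes were higher and 0.0362% lower. After 2 h of IL-2, 3 members were 2-fold higher (Eif1a, Eif2b3 and Eif4e3) and 0 lower, against 3.15% and 1.31% of all genes. After 4 h of IL-2, 9 were higher (Eif1a, Eif2b3, Eif2s1, Eif3b, Eif3j, Eif4a2, Eif4e, Eif4g1 and Eif5a) and 0 lower, against 5.38% and 3.3% of all genes. After 24 h of IL-2, 10 were higher (Eif1a, Eif1ad, Eif2s1, Eif3b, Eif3j, Eif4a1, Eif4a3, Eif4e, Eif4g1 and Eif5a) and 0 lower, against 9.58% and 6.64%. Scaling to the upper quartile of genes in place of the library total lowered the median of all genes by 0.22 log2 units in this comparison. On that scale 5 members were 2-fold higher at 24 h and 1 was lower, against 5.5% and 10.6% of all genes. The share of members that were 2-fold higher with IL-2 thus lay above that of all genes at 2, 4 and 24 h, and no member was 2-fold lower with the library-total scaling.

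The IL-21 libraries gave smaller numbers. Against the control, 0 members were 2-fold higher and 0 lower after 0.5 h of IL-21, where 0.326% of all genes were higher and 0.0543% lower. After 2 h of IL-21 Eif1a was the 1 member 2-fold higher and 0 were lower, against 1.72% and 1.18% of all genes. After 4 h of IL-21 0 members passed in either direction, against 1.21% higher and 1.32% lower among all genes. After 24 h of IL-21 0 passed as well, against 1.62% and 1.86%.

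The median difference of the 51 members from control was 0.03, 0.23, 0.48 and 0.49 log2 units with IL-2 at 0.5, 2, 4 and 24 h, while that of all genes was 0.02, -0.04, 0.01 and 0.05. With IL-21 the median of the members was -0.09, 0.09, 0.15 and -0.03, and that of all genes lay between -0.05 and 0.01. Within the IL-2 series 21 of the 51 members were higher at each later time and 3 were lower at each later time (Eif2c2, Eif3f and Eif3h), against 15.9% and 15.3% of all genes, and 27 were mixed. In the IL-21 series no member was higher at each later time, against 4.44% of all genes, and 26 of the 51 had their highest IL-21 level at 4 h, against 33.2% of all genes.

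**Figure D1:**
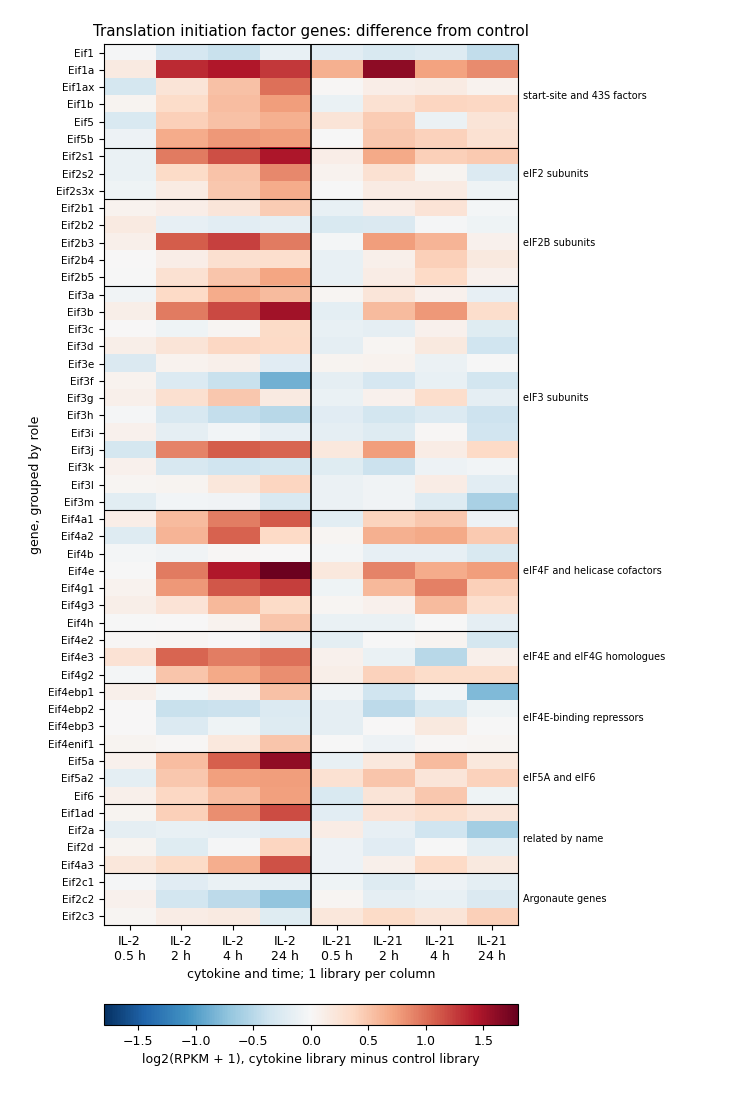
Difference of each of the 51 genes from the control library on the log2(RPKM + 1) scale, with genes in rows grouped by role and the 8 cytokine libraries in columns. Red is above and blue below control; the deepest red is Eif4e after 24 h of IL-2, at 1.77, and Eif3f in the same column is the lowest IL-2 value, at -0.87.

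Sequence before the start of transcription was available for 39 of the 51 members, as windows of 250 bases in RefSeq's table for mouse assembly GRCm38.p6. Both strands were searched for CACGTG, the E-box to which MYC and related factors can bind, for TTCNNNGAA, the palindrome that STAT factors can bind, and for CCGGAAG, the core of ETS family sites; none of these contains another. CACGTG was in the windows of 8 of the 39 members, or 20.5%, and in 10.1% of the 8784 genes that reach 1 RPKM and are in the table. CCGGAAG was in 33.3% of members and 17.3% of those genes, and TTCNNNGAA in 7.69% of members and 7.33% of those genes. The sequences of 4 members with a single window and 1 CACGTG, shown in capitals, follow. They were picked from both sides of the control after 24 h of IL-2. Eif1b and Eif4a1 were above the control after 24 h of IL-2, by 1.72-fold and 2.14-fold, whereas Eif3f and Eif3k were at 0.547 and 0.802 of it. The motif starts 24 bases before the transcript start in Eif1b (plus strand, chr9:120492356-120492605), 189 bases before it in Eif4a1 (minus strand, chr11:69672424-69672673), 68 in Eif3f (plus strand, chr7:108934165-108934414) and 44 in Eif3k (minus strand, chr7:28981889-28982138). Eif4h also has a single window with 1 CACGTG and is not shown. It was above the control after 24 h of IL-2, as were Eif4e, Eif5a and Eif5a2, which carry the motif too. Of the 8 members with CACGTG, Eif3f and Eif3k were below the control in that library. Most of the 51 members were above the control there as well. A match of letters is a description and no evidence of binding.
Eif1b: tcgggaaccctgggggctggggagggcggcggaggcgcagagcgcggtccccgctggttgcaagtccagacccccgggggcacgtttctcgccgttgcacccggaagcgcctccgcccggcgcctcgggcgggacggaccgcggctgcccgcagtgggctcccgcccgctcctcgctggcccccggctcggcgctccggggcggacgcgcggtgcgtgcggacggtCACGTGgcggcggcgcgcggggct
Eif4a1: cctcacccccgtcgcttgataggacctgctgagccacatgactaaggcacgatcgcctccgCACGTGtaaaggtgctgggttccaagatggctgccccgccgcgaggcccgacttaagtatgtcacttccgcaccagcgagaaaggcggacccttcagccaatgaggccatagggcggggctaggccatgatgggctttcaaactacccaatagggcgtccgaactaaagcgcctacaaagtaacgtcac
Eif3f: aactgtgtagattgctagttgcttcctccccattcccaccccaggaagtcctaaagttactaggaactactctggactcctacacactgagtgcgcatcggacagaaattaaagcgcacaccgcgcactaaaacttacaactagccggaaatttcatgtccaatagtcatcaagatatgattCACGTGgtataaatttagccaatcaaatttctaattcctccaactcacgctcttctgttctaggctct
Eif3k: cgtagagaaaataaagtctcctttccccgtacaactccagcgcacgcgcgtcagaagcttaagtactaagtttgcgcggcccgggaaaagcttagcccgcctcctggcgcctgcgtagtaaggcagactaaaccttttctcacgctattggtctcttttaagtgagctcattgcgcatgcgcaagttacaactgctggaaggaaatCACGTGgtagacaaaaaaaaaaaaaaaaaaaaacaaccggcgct

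Among the eIF4F genes the cap-binding subunit had the largest difference, and both helicase genes and the main scaffold gene shared its direction with IL-2. Levels below are given for the control and then for 0.5, 2, 4 and 24 h. Eif4e, which binds the cap, had 11.7 RPKM in the control, 11.6, 23.4, 33.5 and 42.4 RPKM with IL-2 and 13.5, 22.5, 19.2 and 20.4 RPKM with IL-21. Its 4 h and 24 h IL-2 libraries were the highest of the 9, and the IL-21 libraries from 2 h on lay between those and the control. The 24 h IL-2 library was 3.62-fold (95% interval 3.39 to 3.87) of the control, and the 24 h IL-21 library 1.74-fold (95% interval 1.62 to 1.87). Eif4a1, the main helicase, had 248 RPKM in the control, 270.2, 369, 471 and 531 RPKM with IL-2 and 216, 328, 346 and 232 RPKM with IL-21. After 24 h of IL-2 Eif4a1 was 2.14-fold (95% interval 2.10 to 2.19) of the control, whereas the 24 h IL-21 library lay at 0.936 of it. Eif4a2, the second helicase gene, took another course and peaked at 4 h, with 68.1 RPKM in the control, 57.9, 104, 144 and 88.0 RPKM with IL-2 and 70.0, 107, 110.0 and 94.4 RPKM with IL-21. Its 4 h IL-2 library was 2.11-fold (95% interval 2.04 to 2.18) of the control, and 4 h was the 1 time at which the IL-2 library was above the IL-21 library. The ratio of Eif4a1 to Eif4a2 levels was therefore 3.64 in the control, 3.28 with IL-2 at 4 h and 6.03 with IL-2 at 24 h, and 2.45 with IL-21 at 24 h. Eif4a2 overlaps the gene Rfc4 in the RefSeq table, and whether counting used strand is not given in the sources used here, so some of its reads may be from that gene.

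The main scaffold gene was farther from the control than the other scaffold and cofactor genes. Eif4g1, the main scaffold, had 57.4 RPKM in the control, 60.0, 99.5, 126 and 138 RPKM with IL-2 and 54.4, 86.8, 109 and 77.9 RPKM with IL-21. It was 2.4-fold (95% interval 2.34 to 2.45) of the control with IL-2 at 24 h and 1.90-fold (95% interval 1.86 to 1.94) with IL-21 at 4 h, the highest difference of any member in that IL-21 library. Eif4g3, the related scaffold, had 19.9 RPKM in the control, 21, 23.7, 30.2 and 25.6 RPKM with IL-2 and 20.3, 21, 29.9 and 24.8 RPKM with IL-21. Its highest libraries were those of 4 h under either cytokine, about as high with IL-2 as with IL-21. The helicase cofactor genes Eif4b and Eif4h stayed nearer to the control. Eif4b ranged from 129 to 159 RPKM over the 9 libraries, and Eif4h from 85.7 to 136 RPKM, its highest value being the 24 h IL-2 library.

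**Figure D2:**
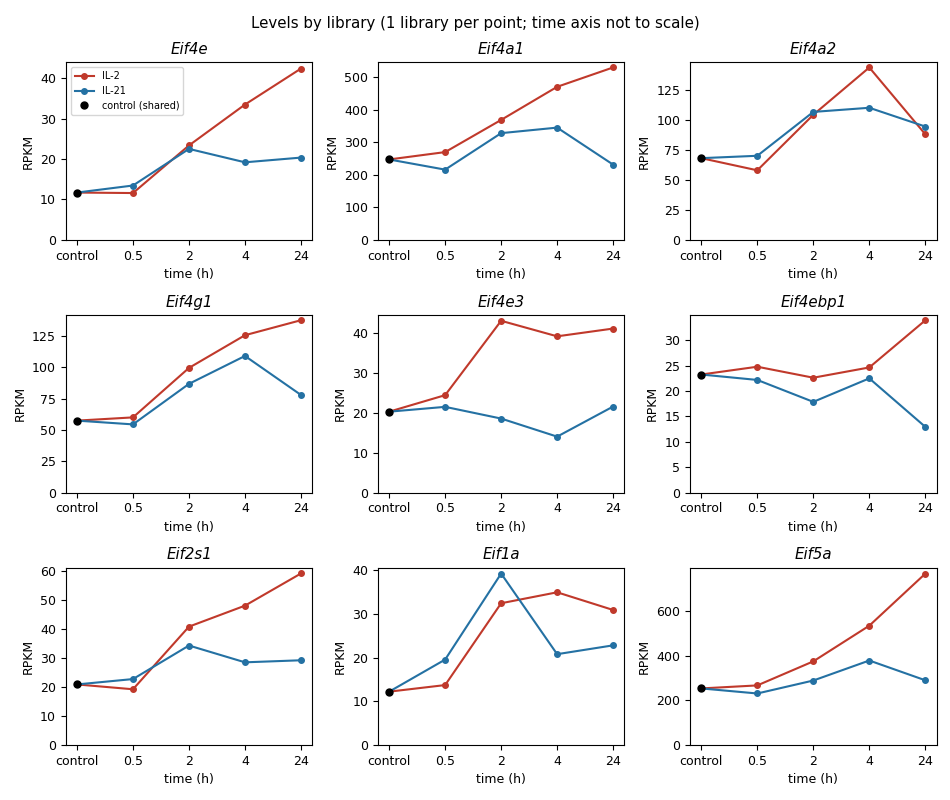
RPKM of 9 genes by library, with the shared control at the left and IL-2 (red) and IL-21 (blue) at 0.5, 2, 4 and 24 h; each point is 1 library and the time axis is not to scale. Eif4e and Eif5a with IL-2 climb to 42.4 and 765 RPKM at 24 h, Eif4a2 peaks at 4 h, and the IL-21 libraries of Eif4e3 stay between 14 and 21.5 RPKM, below its 4 IL-2 libraries.

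Among all members, the cap-binding homologue Eif4e3 had the largest difference between the cytokines at 2 and 4 h. Eif4e3, a homologue of eIF4E that also binds the cap, had 20.2 RPKM in the control, 24.4, 43, 39.1 and 41.0 RPKM with IL-2 and 21.43, 18.5, 14 and 21.5 RPKM with IL-21. All 4 IL-2 libraries were above all 4 IL-21 libraries, and at 2, 4 and 24 h its IL-2 libraries were the highest of the 9. The IL-2 library was 2.32-fold (95% interval 2.2 to 2.45) of the IL-21 library at 2 h and 2.79-fold (95% interval 2.63 to 2.97) at 4 h. Eif4e3 overlaps Gpr27 in the RefSeq table, with the same limit on strand as above. Eif4g2, a scaffold homologue without an eIF4E-binding site, had 82.5 RPKM in the control, 80.5, 117, 133 and 148 RPKM with IL-2 and 89.1, 111, 104 and 104 RPKM with IL-21. Its IL-2 libraries from 2 h on were above all others. Eif4e2, a cap-binding homologue known as a repressor, stayed between 28.7 and 37.1 RPKM.

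Eif4ebp1, a repressor that competes with eIF4G for eIF4E, had 23.3 RPKM in the control, 24.8, 22.6, 24.6 and 33.9 RPKM with IL-2 and 22.2, 17.9, 22.5 and 12.9 RPKM with IL-21. Its 24 h libraries went opposite ways, with 1.46-fold of the control for IL-2 and 0.557-fold for IL-21, so that IL-2 was 2.62-fold (95% interval 2.35 to 2.93) of IL-21. Eif4ebp2, the more abundant repressor gene here, had 74.0 RPKM in the control, 74.7, 55.7, 56.5 and 62.4 RPKM with IL-2 and 66.0, 53.3, 61.1 and 70.0 RPKM with IL-21. It was below the control in every cytokine library but that of 0.5 h of IL-2. Eif4ebp3 had 9.43 RPKM in the control, 9.43, 7.83, 8.84 and 7.89 RPKM with IL-2 and 8.33, 9.44, 10.8 and 9.36 RPKM with IL-21, with no common direction over time. Eif4enif1, which carries eIF4E into the nucleus, ranged from 22.5 to 34.2 RPKM with its highest level after 24 h of IL-2. The summed level of the 3 Eif4ebp genes relative to Eif4e was 9.11 in the control, 9.39, 3.69, 2.69 and 2.46 with IL-2 and 7.18, 3.58, 4.92 and 4.53 with IL-21. That sum itself lay between 80.6 and 109 RPKM in all 9 libraries.

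The genes of eIF2, which brings the initiator tRNA, and of eIF2B, which reloads eIF2 with GTP, differed among themselves. Eif2s1, the alpha subunit whose phosphorylation stops recycling, had 21 RPKM in the control, 19.3, 41.0, 48.2 and 59.3 RPKM with IL-2 and 22.8, 34.4, 28.6 and 29.3 RPKM with IL-21. The 24 h IL-2 library was 2.83-fold (95% interval 2.69 to 2.97) of the control, and the 3 IL-2 libraries from 2 h on were above all others. Eif2s2, the beta subunit, had 49.3 RPKM in the control, 45.5, 62.9, 70.8 and 90.6 RPKM with IL-2 and 51.6, 60.1, 51.1 and 41.2 RPKM with IL-21. At 24 h IL-2 was 2.2-fold (95% interval 2.11 to 2.29) of IL-21, and the IL-21 library was below the control. Eif2s3x, the gamma subunit that holds GTP and the tRNA, had 84.2 RPKM in the control, 79.5, 93.6, 118 and 134 RPKM with IL-2 and 83.7, 93.8, 93.3 and 79.3 RPKM with IL-21. It was the most abundant of the 3 subunit genes in every library, and its ratio to Eif2s1 was 4.01 in the control, 2.26 with IL-2 at 24 h and 2.70 with IL-21 at 24 h.

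Of the 5 eIF2B genes, Eif2b3 stood out. Eif2b3, which forms the catalytic subcomplex with Eif2b5, had 4.83 RPKM in the control, 5.19, 11.3, 12.7 and 10.2 RPKM with IL-2 and 4.66, 8.81, 7.88 and 5.16 RPKM with IL-21. Its 3 IL-2 libraries from 2 h on were the highest, with 2.62-fold (95% interval 2.28 to 3.03) of the control at 4 h. Eif2b5, the catalytic subunit, had 18.3 RPKM in the control, 18.2, 22.3, 26.3 and 30.6 RPKM with IL-2 and 16.6, 20.3, 23.8 and 19.4 RPKM with IL-21. With IL-2 from 2 h on, the regulatory subunit genes moved less than these 2 genes. Eif2b1 had 16.9 RPKM in the control, 17.6, 18.5, 19.7 and 23.6 RPKM with IL-2 and 15.3, 18.3, 20.2 and 16.5 RPKM with IL-21. Eif2b2 had 30.9 RPKM in the control, 34.6, 27.7, 27.1 and 27.4 RPKM with IL-2 and 25.4, 25.6, 30.5 and 29.2 RPKM with IL-21, and was below the control in the IL-2 libraries from 2 h on and in all IL-21 libraries. Eif2b4 had 13.2 RPKM in the control, 13.3, 14.5, 16.4 and 16.6 RPKM with IL-2 and 12, 14.1, 18.1 and 15.1 RPKM with IL-21. At 24 h of IL-2 the 5 genes were thus at 0.888 to 2.10 times the control, with Eif2b2 the lowest and Eif2b3 the highest.

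Among the factors that ride on the small subunit, Eif1a had the largest difference from control at 2 h under either cytokine. Eif1a, which encodes the scanning factor eIF1A, had 12.2 RPKM in the control, 13.7, 32.4, 34.9 and 30.9 RPKM with IL-2 and 19.5, 39.2, 20.8 and 22.8 RPKM with IL-21. With IL-21 it was highest at 2 h, 3.21-fold (95% interval 3.01 to 3.42) of the control, and with IL-2 it was 2.86-fold (95% interval 2.68 to 3.05) at 4 h. Eif1ax, the X-linked copy of the same factor, had 45.3 RPKM in the control, 36.2, 53.6, 65.9 and 91.2 RPKM with IL-2 and 45.8, 49.3, 50.3 and 47.1 RPKM with IL-21. It was highest at 24 h of IL-2 and near the control with IL-21, and because Eif1a and Eif1ax are close in sequence, reads could be divided between them in a way that the sources used here do not state. Eif1, which guards start codon choice, had 349 RPKM in the control, 342, 284, 265 and 318.2 RPKM with IL-2 and 306, 289, 296 and 256 RPKM with IL-21, and was below the control in all cytokine libraries. Eif1b, its close paralog, ranged from 23.3 to 43.6 RPKM with the highest level at 24 h of IL-2. Eif5, which triggers GTP hydrolysis on eIF2, had 57.1 RPKM in the control, 47.3, 77.1, 83.2 and 89.1 RPKM with IL-2 and 67.0, 78.7, 53.2 and 67.2 RPKM with IL-21. It was above the control in the IL-2 libraries from 2 h on and varied on both sides of it with IL-21. Eif5b, which joins the subunits, ranged from 12.7 to 24.1 RPKM, and its 3 IL-2 libraries from 2 h on were its highest.

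The 13 eIF3 genes encode the scaffold that links the small subunit to eIF4F, and they did not move as a unit. Eif3b, a core subunit, had 43.3 RPKM in the control, 46.7, 83.6, 100.4 and 126 RPKM with IL-2 and 38.3, 65.0, 75.3 and 54.0 RPKM with IL-21. After 24 h of IL-2 it was 2.90-fold (95% interval 2.80 to 3.00) of the control and 2.33-fold (95% interval 2.26 to 2.4) of the 24 h IL-21 library. Eif3j, a loosely bound subunit, had 24.4 RPKM in the control, 19.5, 46.2, 53.2 and 51.4 RPKM with IL-2 and 28.0, 41.7, 26.8 and 31.5 RPKM with IL-21. It was 2.18-fold (95% interval 2.07 to 2.3) of the control with IL-2 at 4 h, with a limit on strand because it overlaps Spg11. Eif3a, the largest core subunit, had 79.9 RPKM in the control, 76.4, 102, 128 and 119 RPKM with IL-2 and 82.3, 93.1, 84.4 and 72.0 RPKM with IL-21. Its 3 IL-2 libraries from 2 h on were above all others.

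Several of the most abundant eIF3 genes went the other way. Eif3f had 358 RPKM in the control, 372, 301, 271 and 196 RPKM with IL-2 and 318.6, 291, 327 and 284 RPKM with IL-21. The 24 h IL-2 library was its lowest, at 0.547 of the control (95% interval 0.533 to 0.561) and 0.688 of the 24 h IL-21 library. Eif3h had 340.5 RPKM in the control, 334, 279.5, 253 and 239.6 RPKM with IL-2 and 295, 271, 288 and 263 RPKM with IL-21. Eif3k had 193 RPKM in the control, 203, 158, 151 and 155 RPKM with IL-2 and 167, 147, 181 and 187 RPKM with IL-21. Eif3h was below the control in all cytokine libraries, and Eif3k in all but the 0.5 h IL-2 library. Eif3m had 157 RPKM in the control, 137, 152, 149 and 129 RPKM with IL-2 and 146, 150.3, 134 and 104 RPKM with IL-21, and its lowest library was that of 24 h of IL-21. The other eIF3 genes (Eif3c, Eif3d, Eif3e, Eif3g, Eif3i and Eif3l) were at 0.870 to 1.31 times the control after 24 h of IL-2. With the low genes higher and the high genes lower, the levels of the 13 subunits drew together with IL-2. The highest subunit was 14.7 times the lowest in the control, 19.1, 6.52, 5.08 and 4.66 times with IL-2, and 11.4, 6.98, 12.2 and 9.02 times with IL-21. The lowest subunit was Eif3j in every library.

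**Figure D3:**
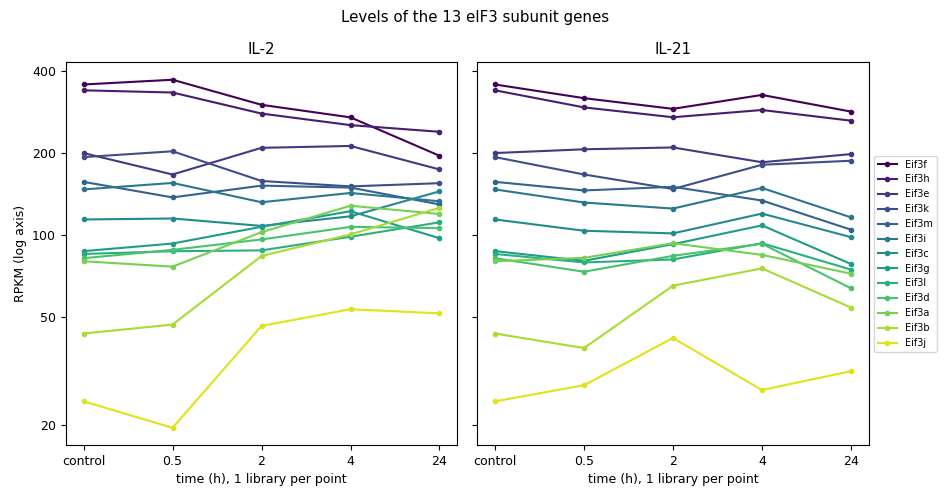
RPKM of the 13 eIF3 subunit genes on a log axis, with the control at the left of each panel and IL-2 (left) or IL-21 (right) at 0.5, 2, 4 and 24 h, 1 library per point. With IL-2 the lines draw together, the ratio of the highest to the lowest subunit being 4.66 at 24 h against 14.7 in the control.

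Eif5a had the highest mean level of the 51 members, 376 RPKM. It encodes the hypusine-bearing protein first isolated as an initiation factor and now known to act in elongation and termination. Its levels were 253 RPKM in the control, 267, 374, 533 and 765 RPKM with IL-2 and 231, 289, 378 and 289.7 RPKM with IL-21. Each later IL-2 library was higher than the one before, and at 24 h it was 3.02-fold (95% interval 2.95 to 3.09) of the control and 2.64-fold (95% interval 2.59 to 2.70) of the IL-21 library. Eif5a overlaps Gps2 in the RefSeq table. Eif5a2, its paralog, was far lower, with 2.50 RPKM in the control, 2.11, 3.88, 4.82 and 4.91 RPKM with IL-2 and 3.24, 3.94, 3.08 and 3.65 RPKM with IL-21. Eif6, which keeps free large subunits apart from small ones, had 32.9 RPKM in the control, 35.1, 42.7, 49.0 and 55.6 RPKM with IL-2 and 27.1, 39.0, 46.6 and 31.2 RPKM with IL-21. Its IL-21 level peaked at 4 h and was back near the control at 24 h.

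Of the genes related by name, Eif4a3 encodes the helicase of the exon junction complex and not of eIF4F. Eif4a3 had 49.2 RPKM in the control, 56.9, 62.5, 77.8 and 109.9 RPKM with IL-2 and 46.4, 52.6, 63.4 and 55.6 RPKM with IL-21, with 2.23-fold (95% interval 2.13 to 2.34) of the control after 24 h of IL-2. Eif1ad had 13.2 RPKM in the control, 13.7, 18.1, 24.3 and 31.0 RPKM with IL-2 and 11.4, 15.8, 16.6 and 15.4 RPKM with IL-21, with 2.35-fold (95% interval 2.19 to 2.53) of the control in the same library, and it overlaps Banf1. Eif2a, a factor of non-standard initiation, had 35.4 RPKM in the control, 31.7, 32.3, 31.8 and 30.5 RPKM with IL-2 and 39.1, 31.9, 27.4 and 23.0 RPKM with IL-21. It was the 1 member lower at each later time with IL-21, against 5.4% of all genes. Eif2d ranged from 17.0 to 26.2 RPKM. The limit on strand given for Eif4a2 holds as well for Eif2a, Eif2d, Eif3m, Eif4enif1 and Eif5b, which overlap Serp1, Rassf5, Ccdc73, Sfi1 and Rev1 in that order. The 3 Argonaute genes did not share a course. Eif2c2 (Ago2), the silencing nuclease, had 39.0 RPKM in the control, 41.2, 30.9, 27.8 and 23.5 RPKM with IL-2 and 39.9, 34.8, 35.6 and 32.5 RPKM with IL-21, lower at each later time with IL-2. Eif2c1 (Ago1) had 9.98 RPKM in the control, 9.84, 8.55, 9.15 and 9.05 RPKM with IL-2 and 9.44, 8.37, 9.32 and 8.67 RPKM with IL-21. Eif2c3 (Ago3) had 2.09 RPKM in the control, 2.16, 2.38, 2.46 and 1.65 RPKM with IL-2 and 2.56, 2.91, 2.65 and 3.15 RPKM with IL-21, and was the 1 member below its IL-21 library at all 4 times with IL-2.

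The library pairs of equal time compare the cytokines without the control. At 0.5 h, 0 of the 51 members were 2-fold apart in either direction, against 0.507% of all genes. The largest differences at that time were below the IL-21 library, with -0.50 log2 units for Eif3j and Eif5 and -0.48 for Eif1a. At 2 h, Eif4e3 was the 1 member 2-fold apart, higher with IL-2, against 1.33% of all genes in either direction. At 4 h Eif4e3 was again the 1 member, higher with IL-2, against 3.9% of all genes in either direction. At 24 h, 6 were higher with IL-2 (Eif2s2, Eif3b, Eif4a1, Eif4e, Eif4ebp1 and Eif5a) and 0 lower, against 15.9% of all genes in either direction. Scaling to the upper quartile, which lowered the median of all genes by 0.19 log2 units here, left Eif4ebp1 and Eif5a, against 15.8% of all genes in either direction. The median difference of the members was 0.14, 0.09, 0.17 and 0.48 log2 units at 0.5, 2, 4 and 24 h, against 0.08, 0.02 and 0.07 for all genes at 0.5, 2 and 24 h and a value near 0 at 4 h. IL-2 was the higher of the pair at all 4 times in 19 of the 51 members, or 37.3%, and in 19.4% of all genes.

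**Figure D4:**
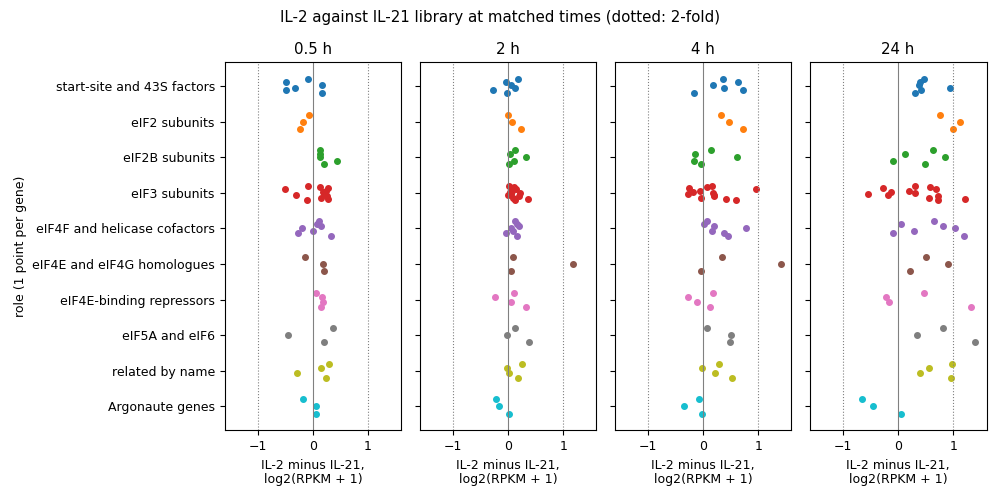
Difference between the IL-2 and the IL-21 library of the same time on the log2(RPKM + 1) scale, 1 point per gene, with roles in rows and the 4 times in panels; dotted lines mark 2-fold. At 2 and 4 h the point beyond the dotted line is Eif4e3, and at 24 h 6 genes lie beyond it, the farthest being Eif5a at 1.40.

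The change over time was tested on the 8 cytokine libraries, with the deposited read counts of 10452 genes and a slope against log2 of time for each cytokine. With no replicate cultures, departures from a straight line served as the error, so the p-values reflect the scatter among these libraries alone, part of which may be technical. With IL-2, 8 of the 51 members rose and 2 fell over time by edgeR's quasi-likelihood test at a Benjamini-Hochberg adjusted p under 0.05, against 6.75% and 6.57% of all genes tested. Slopes are log2 changes per doubling of time, with their standard errors. All 3 eIF2 subunit genes rose, with 0.27 ± 0.07 for Eif2s1, 0.17 ± 0.04 for Eif2s2 and 0.14 ± 0.04 for Eif2s3x. Of the members that passed, these 3 lay nearest the threshold, with edgeR adjusted p of 0.0490, 0.0457 and 0.0487 in that order. Eif4e rose by 0.33 ± 0.07 (edgeR adjusted p = 0.0322), Eif5a by 0.27 ± 0.05 (edgeR adjusted p = 0.0209) and Eif1ax by 0.23 ± 0.04 (edgeR adjusted p = 0.0192). Eif1ad rose by 0.21 ± 0.05 and Eif4a3 by 0.17 ± 0.04. Eif3f fell by 0.17 ± 0.03 (edgeR adjusted p = 0.0204) and Eif2c2 fell by 0.15 ± 0.03 (edgeR adjusted p = 0.0293). Most of these calls were lost when the libraries of 1 time were left out. Without those of 0.5 h 2 members passed (Eif3f and Eif5a), against 13.4% of all genes, and without those of 24 h 3 passed (Eif4a2, Eif4g1 and Eif5a), against 2.83%. Without those of 2 h or of 4 h 0 members passed, against 0% of all genes in both fits. The slopes of the 10 members kept their direction in all 4 of these fits, that of Eif5a lying between 0.25 and 0.32 and that of Eif3f between -0.20 and -0.16. DESeq2 called 17 members on the same counts, 14 rising and 3 falling, against 12.3% and 12.6% of all genes tested.

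With IL-21, 0 of the 51 members passed in either direction by edgeR, against 0% of all genes tested. At an unadjusted p under 0.05 the count was 1 member, Eif2a, and 796 of the 10452 genes. DESeq2 called 1 member, again Eif2a, which fell, against 1.69% of all genes in either direction. Passing with IL-2 and not with IL-21 does not show that the slopes differ. In the direct edgeR test of the difference in slope 0 members passed, against 0% of all genes, with 8 members and 2014 of the 10452 genes at an unadjusted p under 0.05. The smallest adjusted p of a member in that edgeR test was 0.125, for Eif1ax, whose slope with IL-2 exceeded that with IL-21 by 0.23 ± 0.06. DESeq2 called 3 members (Eif1ax, Eif2s2 and Eif3f), against 6.92% of all genes, and limma 0, against 0%.

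The mean difference between IL-2 and IL-21 over the 4 times, with time as a factor, was above 0 in 40 of the 51 members, or 78.4%, and in 50.5% of all genes tested. By edgeR 0 members passed in either direction, against 0.0191% of all genes higher and 0.0191% lower. At an unadjusted p under 0.05 there were 8 members and 1534 of the 10452 genes. The largest mean difference was that of Eif4e3, 0.91 ± 0.23 log2 units with an edgeR adjusted p of 0.260, and it was higher with IL-2 in 4 of 4 pairs. DESeq2 called this gene alone among the members, against 4.37% of all genes, and limma called 0, against 0.0287%. The same gene passed in edgeR when the 0.5 h libraries were left out, against 1.13% of all genes.

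**Figure D5:**
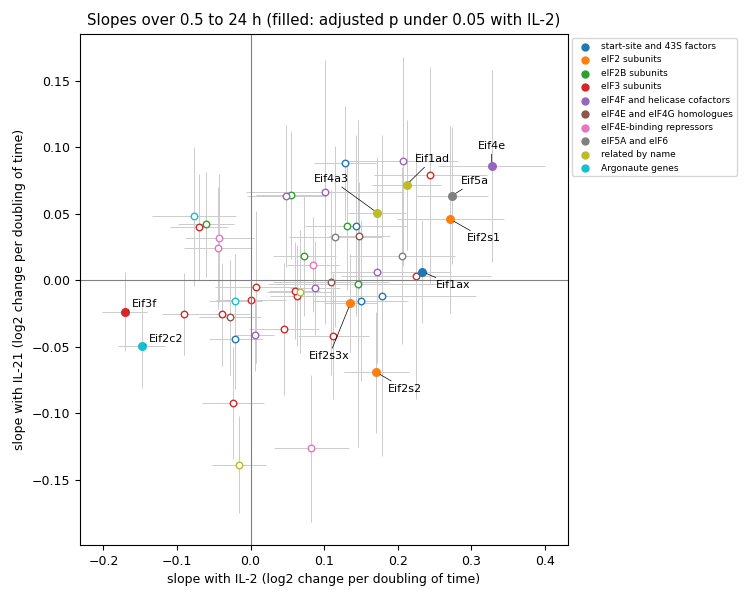
Slope over time with IL-2 (horizontal axis) and with IL-21 (vertical axis) of the 51 genes, in log2 change per doubling of time, with standard errors as grey lines and colours for roles. Filled points are the 10 genes whose IL-2 slope passed by edgeR; Eif4e lies farthest to the right at 0.33 and Eif3f farthest to the left at -0.17.

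Genes that act with the initiation factors gave a mixed picture. The 5 genes of termination and recycling that reached 1 RPKM were above the control after 24 h of IL-2, by 0.60 (Denr) to 1.92 (Abce1) log2 units. Etf1, Gspt1 and Abce1 were 2-fold or more higher, against 9.58% of all genes. Of the 5 genes, 3 rose over time with IL-2 by edgeR, against 6.75% of all genes tested. The slopes were 0.23 ± 0.05 for Etf1, the stop codon reader, 0.30 ± 0.08 for Gspt1, its GTPase partner, and 0.23 ± 0.06 for Mcts1. Abce1, which splits finished ribosomes, had 17.2 RPKM in the control, 16.1, 54.3, 66.4 and 67.7 RPKM with IL-2 and 20.7, 49.0, 35.8 and 35.0 RPKM with IL-21. Of the 8 elongation genes 2 fell over time with IL-2 and 0 rose, against 6.57% and 6.75% of all genes tested. Eef1a1 fell by 0.16 ± 0.02 and Eef2 by 0.19 ± 0.02. Eef1a1, which delivers tRNAs, had 8808 RPKM in the control, 8819, 7238, 6759 and 4863 RPKM with IL-2 and 8232, 7315, 7651 and 5698 RPKM with IL-21. Eef1e1, a component of the tRNA synthetase complex, had 6.66 RPKM in the control, 8.49, 23.1, 36.7 and 34.1 RPKM with IL-2 and 7.93, 19.1, 10.9 and 10.9 RPKM with IL-21, and was 2-fold higher with IL-2 from 2 h on.

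Of the 8 genes listed as eIF2 kinases, phosphatase subunits or their partners, 0 passed in either direction over time with IL-2 by edgeR, against 13.3% of all genes tested. At an unadjusted p under 0.05 there were 2 of them and 3515 of the 10452 genes. Eif2ak3, the kinase of endoplasmic reticulum stress, had 17.5 RPKM in the control, 19.6, 7.01, 6.34 and 6.23 RPKM with IL-2 and 17.1, 6.61, 7.6 and 8.33 RPKM with IL-21. It was lower than the control from 2 h on under both cytokines. Of the 13 regulators of eIF4F, 0 passed over time with IL-2 by edgeR, against the same 13.3% of all genes tested. At an unadjusted p under 0.05 there were 0 of them, against the same 3515 of the 10452 genes. Pdcd4, which blocks eIF4A, had 115 RPKM in the control, 107, 91.1, 75.8 and 43 RPKM with IL-2 and 113, 44.0, 37.8 and 56.1 RPKM with IL-21, below the control with both cytokines and at 2 and 4 h lower with IL-21 than with IL-2. Larp1, which represses messages of the translation machinery, had 29.3 RPKM in the control, 30.9, 74.6, 75.9 and 64.2 RPKM with IL-2 and 28.2, 52.2, 38.2 and 32.5 RPKM with IL-21, with its highest libraries at 2 and 4 h of IL-2. Of the 2 genes that make hypusine on eIF5A, Dhps rose over time with IL-2 by 0.17 ± 0.04 by edgeR, where 6.75% of all genes tested rose. Dohh did not pass, with 11.9 RPKM in the control, 13.9, 14, 15.5 and 18.8 RPKM with IL-2 and 10.7, 10.6, 12.1 and 10.9 RPKM with IL-21. Dhps, the first enzyme of that step, had 10.5 RPKM in the control, 9.70, 12.7, 14.8 and 19.2 RPKM with IL-2 and 8.70, 11.2, 12.9 and 12.8 RPKM with IL-21. In none of these lists did a member pass over time with IL-21 by edgeR, against 0% of all genes. At an unadjusted p under 0.05 there were 796 of the 10452 genes tested. Among them were 2 elongation genes, 1 gene of the eIF2 kinase and phosphatase list, 1 regulator of eIF4F, and 0 genes of termination and recycling or hypusination.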

How the data were processed

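RNA-seq of 9 libraries was used. Per the labels' protocols, a stranded kit was used on total RNA. The submitters' processing notes name TopHat2 2.0.11, Bowtie 0.12.9, HOMER and SAMtools and the mouse build mm9. The annotation, the counter and its strand setting were not given in the sources used here. A deposited file has, per the file headers, 1 row per RefSeq transcript, with a whole-number read count and an RPKM value, which the authors scaled to transcript length and library total. No steps beyond these are stated.

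From these values, the transcript with the highest mean RPKM stood for each gene, short transcripts under 200 bases were left out, and differences were taken as log2(RPKM + 1) over 11047 genes with 1 RPKM or more in the highest library. Library totals were 29.5 to 44.3 M reads. Tests used edgeR 4.0.16 (quasi-likelihood, TMM scaling, Benjamini-Hochberg) on the deposited counts of the 8 cytokine libraries and on 10452 genes averaging 1 RPKM or more, with DESeq2 1.42.0 and limma 3.58.1 as alternatives. The fit of the mean cytokine difference left 3 residual degrees of freedom and that of the slopes 4. The fits were also run on simulated counts, which had a fixed spread and no departures from the fitted model. That run therefore does not show what the tests could find in these libraries. Groups came from the sample labels.

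The members and the gene lists were chosen with earlier results of these data known. Values in all 9 libraries are given for the eIF4E, eIF4A and eIF4G genes of eIF4F, for Eif4g2, the Eif4ebp, eIF2B and Argonaute genes, for Eif2s1, Eif3a, Eif5a and Eif6, for the 3 highest and 3 lowest members of each comparison and for members that passed an edgeR test; other genes named in the pathway lists were picked after their values were seen. Of the 51 members, 50 were found in RefSeq's GRCm38.p6 gene table, 4 of them under a newer symbol, and 10 overlap another protein-coding gene there, which leaves their reads uncertain. Protein sequences were not used here.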

Additional observations from a re-analysis of the deposited data

How the results depend on the processing

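Pseudocount, TMM scaling, floor, sum of transcripts and omission of the Argonaute genes left every count of 2-fold members within 1.5 times its value. A 1.5-fold threshold gave, against control, 10, 17 and 24 members with IL-2 at 2, 4 and 24 h (22 higher and 2 lower at 24 h), against 16.3%, 26.6% and 39.8% of all genes. With IL-21 it gave 1, 7, 6 and 4 members at 0.5, 2, 4 and 24 h, against 1.51%, 13.3%, 11.1% and 13.7%. Between IL-2 and IL-21 it gave 8 members at 4 h and 21 at 24 h, 20 of them higher with IL-2, against 15.7% and 37.9% of all genes. Upper quartile scaling gave 6 members after 24 h of IL-2 against control and 2 between IL-2 and IL-21 at 24 h, against 16.1% and 15.8% of all genes; it moved the median of all genes by -0.22 and -0.19 log2 units there and by under 0.1 in the other comparisons. DESeq2 gave 1 member for the mean cytokine difference, 3 for the difference in slope, 17 for the IL-2 slope and 1 for the IL-21 slope. Leaving out the libraries of 1 time gave 0 to 1 members for the mean difference and 0 to 3 for the IL-2 slope. The cause of these changes was not tested, and the fits in the last also had fewer libraries. Of the 10 members whose IL-2 slope passed, each kept its direction under the 10 alternatives, and each stayed past the threshold in 2 (Eif2s3x) to 8 (Eif5a) of them. No called difference or slope reversed. As far as replicate numbers go, no paired analysis was possible because each condition has 1 library; pairing by time is part of the fit of the mean difference, whose time factor sets libraries of equal time side by side. With 1 library per condition the depth sets only the counting error, and the variation between cultures was not measured.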

Other observations

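Of the 12 measured mTOR pathway genes, Rheb, the small GTPase that switches mTOR on, rose over time with IL-2 by edgeR, by 0.18 ± 0.05 log2 units per doubling of time. Rheb had 12.8 RPKM in the control, 12.7, 16.5, 17.3 and 26.1 RPKM with IL-2 and 12.6, 17.4, 14.5 and 17.4 RPKM with IL-21 at 0.5, 2, 4 and 24 h. Rps6, a ribosomal protein that is a late target of the pathway, fell by 0.12 ± 0.02 in the same edgeR test. Among all genes tested 6.75% rose and 6.57% fell. The other 10 genes of that list did not pass, and Mtor itself had 7.02 RPKM in the control, 6.90, 7.08, 8.20 and 7.35 RPKM with IL-2 and 5.73, 7.36, 8.79 and 6.93 RPKM with IL-21. Ddit4, an inhibitor of mTOR, had 83.9 RPKM in the control, 41.7, 57.8, 50.5 and 71.4 RPKM with IL-2 and 31.9, 52.2, 77.0 and 52.6 RPKM with IL-21, so that its lowest libraries were those of 0.5 h under both cytokines.

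Of the 8 mitochondrial translation factor genes, 1 fell and 0 rose over time with IL-2 by edgeR, against 6.57% and 6.75% of all genes tested. The gene that fell was Mtif3, the mitochondrial counterpart of a bacterial initiation factor, by 0.19 ± 0.04. Mtif3 had 4.57 RPKM in the control, 4.39, 3.26, 2.99 and 2.12 RPKM with IL-2 and 3.76, 3.36, 3.95 and 3.45 RPKM with IL-21. Mtif2, the other mitochondrial initiation factor gene, had 12.8 RPKM in the control, 10.8, 12, 13.5 and 11.1 RPKM with IL-2 and 12.9, 13, 12.9 and 12.3 RPKM with IL-21, and Tsfm, an elongation factor, had 8.78 RPKM in the control, 8.74, 13, 15.5 and 15.7 RPKM with IL-2 and 7.90, 11, 10.9 and 6.60 RPKM with IL-21. In both lists 0 genes passed over time with IL-21 by edgeR, against 0% of all genes. At an unadjusted p under 0.05 there were 0 genes of either list and 796 of the 10452 genes tested.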
